A study of Mus musculus and Homo sapiens with 14 samples.

Results

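Of the 14 libraries in a series on salt-inducible kinases (SIKs) in acute myeloid leukemia, 4 come from MOLM-13, and they are described here. MOLM-13 is an established human acute myeloid leukemia line with an MLL-AF9 fusion and an internal tandem duplication in FLT3, and the line used here also carried an empty vector. For 2 h, 2 libraries were treated with YKL-05-099, an inhibitor of the SIKs, at 250 nM, and 2 received 0.1% DMSO, the solvent. Polyadenylated RNA was sequenced, and the table of these libraries has 19166 genes, of which 11330 had a mean normalized read count of at least 10 and lay outside the regions of the major histocompatibility complex and the pseudoautosomal genes. The comparison asks which transcripts had changed 2 h after the inhibitor was added. The labels do not say if the replicates were cultured apart. With replicate number as a block, p-values reflect how far the change disagrees between same-numbered pairs of libraries, pooled over genes of like level. They leave out the difference between replicate numbers, and the spread that they do reflect could be technical.

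SIKs are kinases of the AMPK family that are switched on by LKB1. They phosphorylate the CRTC coactivators and the class IIa histone deacetylases, which then stay in the cytoplasm bound to 14-3-3 proteins. When SIKs are blocked, CRTCs can enter the nucleus to help CREB drive transcription, and class IIa deacetylases can enter it to repress MEF2 factors, of which MEF2C is a known dependency of MLL-rearranged leukemia. YKL-05-099 acts on the kinase proteins, so the transcripts of the SIKs themselves do not check the treatment.

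Each library held between 16859820 and 22609627 counted reads. Transcripts that mark the line were present in every library, among them CD33, FLT3, CD4, MPO and HOXA9, while CD34, a stem cell marker, was at 0 in all 4. Of 31 markers of lymphoid, erythroid, megakaryocytic, mast, fibroblast and epithelial cells, 24 fell below the mean of 10, 10 of them at 0, and 0 of the 7 tested passed the test. Their summed level was 917 and 1110 in the DMSO libraries and 983 and 1034 in the YKL-05-099 libraries, most of it NKG7 and KRT18, and the T-cell marker CD3E, the B-cell marker MS4A1 and hemoglobin HBB were at 0 in every library. Libraries differed more by replicate number than by treatment. Deviations of same-numbered libraries from their group means correlated at 0.54 across genes, and 4325 genes (38.2%) differed by replicate number in the fit that tested the inhibitor. For that reason the replicate number was kept as a block, and pair 1 and pair 2 below mean YKL-05-099 against DMSO with the same number. In every sentence that gives 2 values for a group, replicate 1 comes first, and the values are DESeq2-normalized read counts.

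Most genes changed little with the inhibitor, and the largest change among genes with a mean of at least 50 was the 4.15-fold fall of SHISA2. Transcripts of the cytokine OSM, of the interleukin-10 receptor subunit IL10RA and of the mTORC1 inhibitor DDIT4 rose by 2.14-fold, 2.11-fold and 2.04-fold, and transcripts of SHISA2, OCSTAMP and the NF-kB inhibitor TNFAIP3 fell by 4.15-fold, 3.18-fold and 2.13-fold. With limma and the replicate block, 285 of 11330 genes (2.52%) passed a Benjamini-Hochberg adjusted p of 0.05, of which 139 (1.23%) were higher and 146 (1.29%) lower with YKL-05-099. Only 6 of the higher and 8 of the lower genes changed by more than 2-fold, and 24 and 17 by more than 1.5-fold. The median size of the log2 fold change was 0.27 among genes that passed and 0.063 among all genes tested, and the smallest change that passed was 0.14. All 285 genes moved in the same direction in both pairs, while the groups did not overlap in 217 of them (76.1%). Over all 11330 genes, the YKL-05-099 libraries lay above both DMSO libraries in 10.7% and below both in 10.5%.

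The number of calls rested on the block and on the variance that limma shared among genes of like level. Without the block 0 genes passed in limma (smallest adjusted p = 0.50, with 146 genes at an unadjusted p under 0.05), 0 in edgeR (148 genes at an unadjusted p under 0.05) and 7 in DESeq2. With the block, edgeR called 278 genes, 269 of them among the 285, and DESeq2 called 28, all among the 285. Because the prior degrees of freedom were infinite with the block, a gene whose pairs disagreed could pass with a very small p. The values of every library are therefore given below for many of the genes named. The 7 genes that passed in DESeq2 both with and without the block were IL10RA, DDIT4 and ICOSLG among the rises and SHISA2, OCSTAMP, TNFAIP3 and CDC42EP3 among the falls. Among the 29 largest changes described below and the list members, those that passed in DESeq2 with the block only were HBEGF and MXD1 among the rises, and DHRS9, CITED2, FOSL2, DUSP7, PIM1, MYB, IRF8, CDKN1A and FUT4 among the falls. Across the 9442 genes with a mean of at least 100, the changes in pair 1 and pair 2 correlated at Pearson 0.38 and Spearman 0.25, as a description across genes, which are not independent replicates. The SD of the change across these genes was 0.143 in pair 1 and 0.125 in pair 2, against an SD of 0.224 for the difference between the 2 DMSO libraries and 0.231 between the 2 YKL-05-099 libraries.

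**Figure D1:**
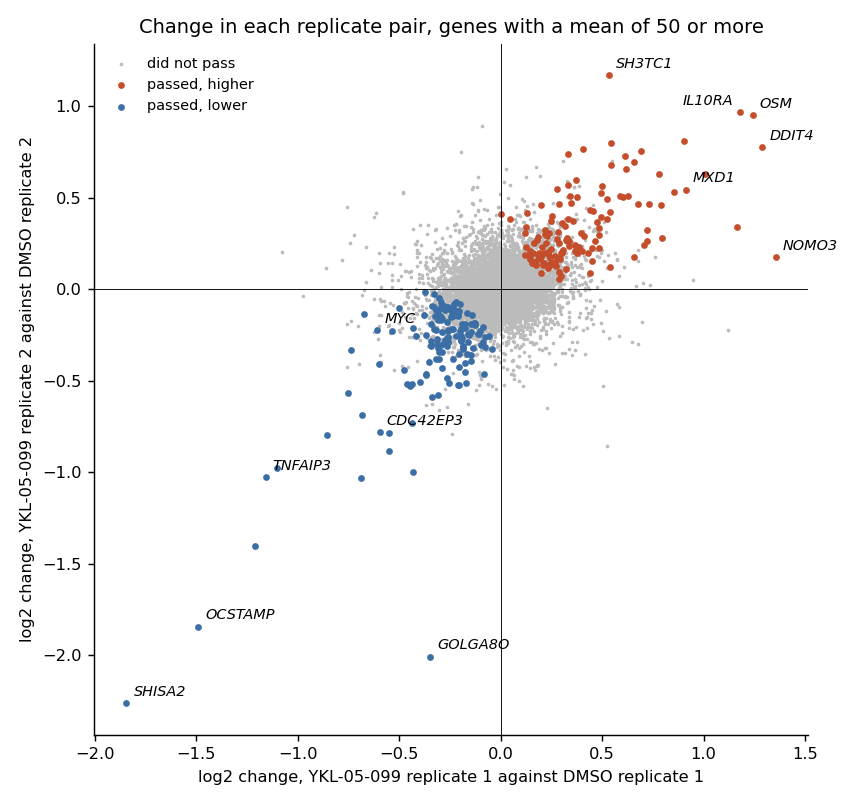
Log2 change between the YKL-05-099 and the DMSO library of replicate 1 (horizontal axis) and of replicate 2 (vertical axis), 1 point per gene with a mean of at least 50, coloured by whether the gene passed limma with the replicate block. SHISA2, OCSTAMP and TNFAIP3 lie far down the lower left in both pairs, while NOMO3 and GOLGA8O changed mostly in 1 pair.

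Among secreted factors and their receptors, OSM, a cytokine of the interleukin-6 family, stood at 74.4 and 115 in the DMSO libraries and at 177 and 223 in the YKL-05-099 libraries. Both treated libraries lay above both controls, and OSM rose by a log2 fold change of 1.10 (SE 0.14, limma adjusted p = 7.79e-12). IL10RA, the ligand-binding chain of the interleukin-10 receptor, read 221 and 195 with DMSO and 503 and 383 with YKL-05-099. The controls were close to each other and both treated libraries were well above them (log2 fold change 1.08, SE 0.10, limma adjusted p = 2.44e-24). HBEGF, a ligand of the epidermal growth factor receptor, went from 176 and 207 to 330.2 and 364 (log2 fold change 0.86). TNFSF14, the TNF family ligand also called LIGHT, went from 270.5 and 252 to 428 and 409.8 (log2 fold change 0.68), with replicates of each group near each other and a wide gap between groups. Transcripts of ICOSLG, the ligand of the T-cell costimulator ICOS, were 1198 and 1184 with DMSO and 1839 and 1868 with YKL-05-099 (log2 fold change 0.64, SE 0.05, limma adjusted p = 2.16e-30). Replicates of ICOSLG were close to each other in both groups, and the groups were far apart. This gene was named because DESeq2 called it with and without the block, a choice made after its values were seen.

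DDIT4, a stress-induced inhibitor of mTORC1, read 353 and 514 with DMSO and 864 and 881 with YKL-05-099. The treated libraries were close to each other and lay well above controls that themselves differ, and the gain was larger in pair 1 than in pair 2 (log2 changes 1.29 and 0.78, fitted 1.03, SE 0.07, limma adjusted p = 4.51e-42). Transcription factors were among the rises as well. NR4A2, an orphan nuclear receptor, went from 39.8 and 56.5 to 81.1 and 87.9 (log2 fold change 0.82, SE 0.20). BCL6, a transcriptional repressor, went from 223 and 184 to 404 and 267 (log2 fold change 0.69, SE 0.11). BCL3, an atypical member of the IkB family, went from 191 and 153 to 278 and 267 (log2 fold change 0.67, SE 0.12). In these 3 genes the groups did not overlap, although the rise of BCL6 was smaller in replicate 2. MXD1, a partner of MAX that opposes MYC, read 783 and 549 with DMSO and 1475 and 802 with YKL-05-099, so that replicate 2 of the treated group lay only just above replicate 1 of the controls. Within pairs MXD1 moved by log2 changes of 0.91 and 0.54 (fitted 0.73, SE 0.06, limma adjusted p = 3.21e-27).

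The other genes among the 15 largest rises were signaling and trafficking proteins. RGS2, which speeds GTP hydrolysis by G proteins, read 32.5 and 61.6 with DMSO and 74.2 and 78.3 with YKL-05-099 (log2 fold change 0.75, SE 0.21). Its change was much larger in pair 1 than in pair 2 (log2 changes 1.17 and 0.34), with DMSO replicate 1 the lowest library, and it was the only one of these 29 changes that edgeR with the block did not call. SCIMP, a transmembrane adaptor of immune cells, went from 94.3 and 82.1 to 153 and 139, and RIN3, an exchange factor for RAB5 proteins, from 167 and 162 to 287 and 250.3. Both rose by a similar amount in the 2 pairs, with log2 fold changes of 0.72 and 0.70. SH3TC1 (0.85) and NHSL2 (0.67) also rose, at low levels. The log2 changes in pair 1 and pair 2 were 0.53 and 1.17 for SH3TC1 and 0.61 and 0.73 for NHSL2. NOMO3 belongs to a family of near-identical copies, between which reads may be split, and its value of 366 and 151 with YKL-05-099 against 143 and 133 with DMSO shows that 1 treated library carried its change (log2 changes 1.35 and 0.18 in the 2 pairs).

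The falls reached further than the rises. SHISA2, which holds immature FGF and WNT receptors in the endoplasmic reticulum, read 198 and 298 with DMSO and 54.5 and 61.1 with YKL-05-099. Both treated libraries lay far under both controls, and the fall was 4.15-fold (log2 fold change -2.05, SE 0.15, limma adjusted p = 2.98e-38). OCSTAMP, a membrane protein needed for the fusion of osteoclast precursors, read 246 and 500.4 with DMSO and 86.9 and 139 with YKL-05-099. Its controls differed widely from each other, yet the groups did not overlap and both pairs fell by a similar factor (log2 changes -1.49 and -1.85, fitted -1.67, SE 0.12, limma adjusted p = 4.35e-40). TNFAIP3, or A20, a ubiquitin-editing enzyme that restrains NF-kB signaling, went from 681 and 853 to 305 and 417, a 2.13-fold fall with a clear gap between the groups (log2 fold change -1.09, SE 0.08, limma adjusted p = 1.99e-41). CDC42EP3, an effector of the GTPase CDC42, had 3599 and 3522 with DMSO and 2379.9 and 2051 with YKL-05-099, and its fall was 1.61-fold, with a wide gap between the groups (log2 fold change -0.69, SE 0.05, limma adjusted p = 4.77e-46).

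PTGER4, the prostaglandin E2 receptor EP4, which signals through the stimulatory G protein to cyclic AMP, read 158 and 234 with DMSO and 86.9 and 134 with YKL-05-099 (log2 fold change -0.83, SE 0.14, limma adjusted p = 5.82e-07). Each treated library lay below both controls. BMP2, a ligand of the TGF-beta superfamily, went from 73.4 and 103 to 33.6 and 51.6 (log2 fold change -1.04), and INHBA, the subunit of activin A, another ligand of that superfamily, from 161 and 228 to 110.1 and 132 (log2 fold change -0.67). Both ligands were lower in each treated library than in each control.

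Transcription factors that fell included FOXA1, a pioneer factor, at 66.0 and 110.3 with DMSO and 40.6 and 53.5 with YKL-05-099 (log2 fold change -0.86). NFIL3, a basic leucine zipper repressor, went from 442 and 752 to 328 and 375 (log2 fold change -0.72), with the larger fall in pair 2. ARID5B, a DNA-binding cofactor of a histone demethylase, went from 80.7 and 127 to 49.8 and 78.3 (log2 fold change -0.69), with a gap of only a few counts between the groups. MSC, a basic helix-loop-helix repressor, was the only one of these 29 changes whose groups overlapped, with 145 and 59.0 in the controls and 98.5 and 31.5 in the treated libraries. Its replicates differed more than its groups, and its fall is seen only within pairs (log2 changes -0.55 and -0.88). USP2, a deubiquitinating enzyme (-0.66), and DHRS9, a dehydrogenase of retinoid and steroid metabolism (-0.58), also fell. GOLGA8O is 1 of a family of near-identical golgin genes, and it fell mostly in pair 2 (log2 changes -0.35 and -2.01), with DMSO replicate 2 far above the other libraries.

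**Figure D2:**
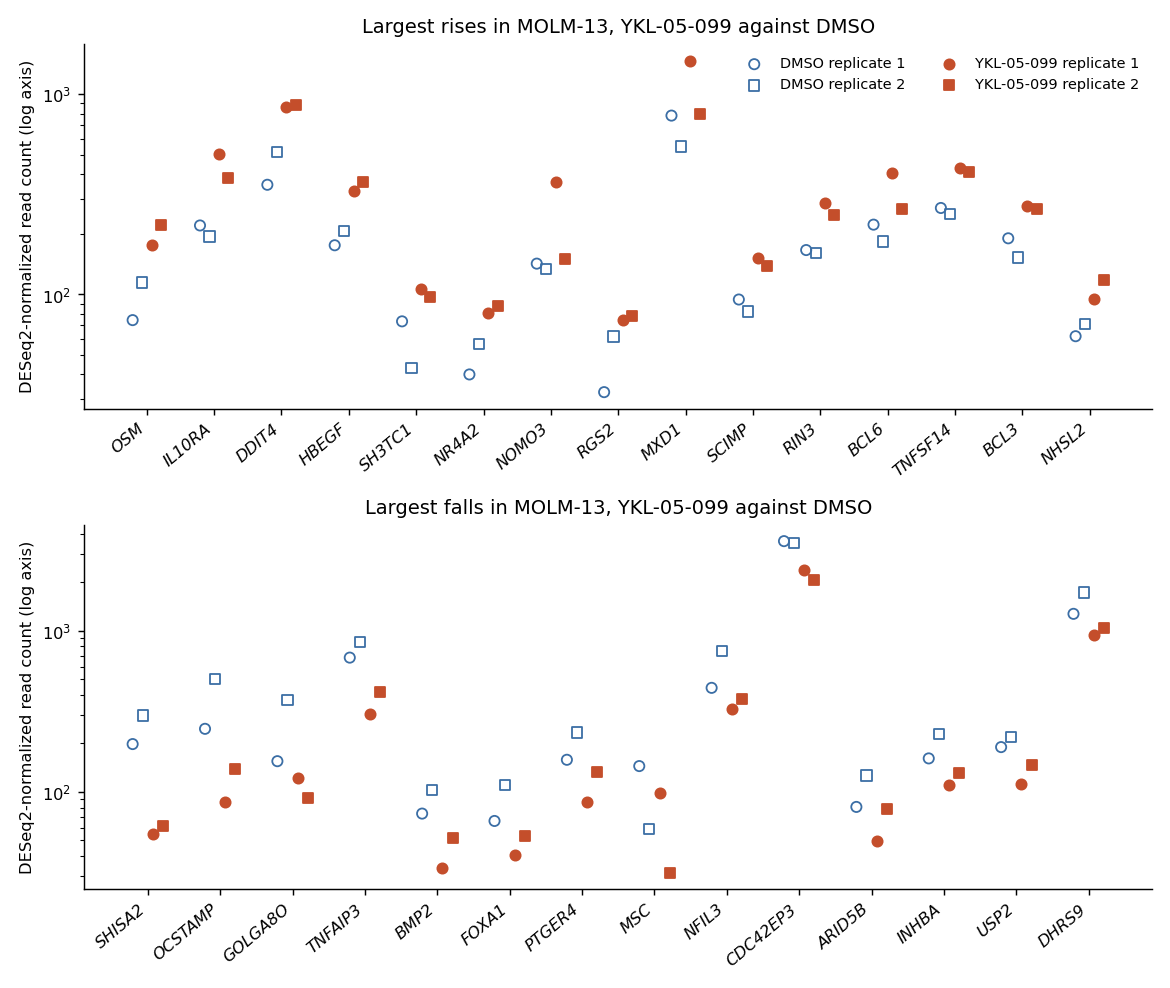
DESeq2-normalized read count (log axis) of the 15 largest rises (upper panel) and 14 of the largest falls (lower panel) in each of the 4 libraries, open symbols for DMSO and filled symbols for YKL-05-099, circles for replicate 1 and squares for replicate 2. The groups are apart in 28 of these 29 genes and overlap in MSC, and NOMO3 and GOLGA8O each have 1 library away from the other 3.

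The direct pathway of the inhibitor was described through a list of 22 genes for the SIKs, the LKB1 complex and the SIK substrates with their partners. Counts for this list and those below stand beside 1.23% of all genes tested that rose and 1.29% that fell. Of the 22, 0 rose and 1 fell, with a median log2 fold change of -0.02 beside -0.001 for all genes tested. HDAC7, a class IIa deacetylase, was the gene that fell, from 804 and 726 to 596 and 628 (log2 fold change -0.32, SE 0.07, limma adjusted p = 0.000397), and its groups did not overlap. None of the 3 kinases passed limma with the block. SIK1, itself a known CREB target, read 201 and 208 with DMSO and 221 and 224 with YKL-05-099 (log2 fold change 0.12, SE 0.12, adjusted p = 0.752). SIK2 read 732 and 627 and 715 and 673 (0.03, SE 0.07), and SIK3 read 1018 and 935 and 978 and 866 (-0.08, SE 0.06), with overlapping groups in both. None of the 4 MEF2 factors passed either, with log2 fold changes of -0.01 for MEF2A, -0.02 for MEF2B, 0.06 for MEF2C and -0.02 for MEF2D. MEF2C stood at 7976 and 7522 in the controls and at 8830.1 and 7355 with the inhibitor, and MEF2D at 8889 and 8658 and 8841 and 8453.

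Of 23 listed targets of CREB, 18 were tested, 3 rose and 2 fell, with a median of 0.11. With the block, edgeR called 2 of them higher and 2 lower. DESeq2 with the block called 0 higher and 1 lower, which was CITED2, and limma without the block called 0. PDE4B, a phosphodiesterase that breaks down cyclic AMP, had the largest rise of the list, from 17.8 and 11.1 to 55.6 and 38.2 (log2 fold change 1.64, SE 0.31, limma adjusted p = 1.67e-05). Both treated libraries lay above both controls, at a low level where few reads stand behind each value. NR4A2 and RGS2, given above, were the other targets that rose. FOS, a subunit of AP-1, fell from 552 and 667 to 437 and 443 (log2 fold change -0.46, SE 0.08, limma adjusted p = 6.05e-07), and CITED2, a coactivator-binding regulator, from 4453 and 5445 to 3578 and 4417 (log2 fold change -0.31, SE 0.04, limma adjusted p = 8.57e-10). The groups of FOS were well apart, while those of CITED2 almost touched. The classical targets CREM, PER1 and NR4A1 did not pass, with log2 fold changes of 0.05, 0.08 and 0.36. Of 8 listed targets of MEF2, 1 rose and 0 fell, with a median of -0.04, and the riser was KLF6, a zinc finger factor (from 411 and 462 to 561 and 514, log2 fold change 0.30).

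Among 30 immediate early genes, 26 were tested, 2 rose and 3 fell, with a median of 0.01. FOSL2, another AP-1 subunit, fell from 1438 and 1994 to 1112 and 1438 (log2 fold change -0.42), with DMSO replicate 1 level with YKL-05-099 replicate 2. MYC, the growth-promoting transcription factor, read 7269 and 8298 with DMSO and 4769 and 7106 with YKL-05-099 (log2 fold change -0.42, SE 0.04, limma adjusted p = 7.37e-19). The fall of MYC was larger in pair 1, with log2 changes of -0.61 and -0.22, and the groups did not overlap. DESeq2 did not call MYC with or without the block, and neither did limma without the block. The call of MYC therefore rests on the block and on the variance shared among genes. KLF6 and BTG1, an antiproliferative factor (0.27), were the genes that rose. EGR1, JUN, JUNB and FOSB did not pass, with log2 fold changes of -0.09, 0.02, -0.15 and 0.18.

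Of 18 genes induced by or restraining ERK signaling, 16 were tested, 2 rose and 1 fell, with a median of 0. The ERK phosphatase DUSP6 rose from 201 and 211 to 244 and 309.5 (log2 fold change 0.41) and the ETS factor ETV5 from 828 and 777 to 998 and 879.8 (0.22), while DUSP7, another ERK phosphatase, fell from 1569 and 1652 to 1035 and 1245 (-0.50, SE 0.05, limma adjusted p = 1.05e-17). In DUSP7 each treated library lay well below each control. None of the 5 Sprouty and SPRED inhibitors tested passed, and they ranged from -0.58 to 0.02.

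Among 13 feedback and target genes of JAK-STAT signaling, 3 rose and 2 fell, with a median of 0.04. Beside OSM and BCL6, the inhibitor of cytokine signaling SOCS3 rose from 80.7 and 109 to 129.8 and 152 (log2 fold change 0.57, SE 0.15, limma adjusted p = 0.0121). The other inhibitors SOCS1, SOCS2 and CISH did not pass, with log2 fold changes of -0.01, -0.03 and -0.09. PIM1, a survival kinase, fell from 1619 and 2319 to 1298 and 1783 (-0.35), and its groups overlapped, so that the fall is seen within pairs. The related kinase PIM3 fell from 1206 and 1292 to 995 and 1194 (-0.20).

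Of 27 NF-kB and inflammatory genes, 21 were tested, 2 rose and 1 fell, with a median of 0.01. BCL3 and TNFAIP3, given above, moved in opposite directions, and TNFAIP2 rose within pairs only, from 1091 and 697 to 1191 and 884 (0.23). NFKBIA, which encodes the inhibitor IkB alpha, did not pass (from 406 and 522 to 485 and 606, log2 fold change 0.24, limma adjusted p = 0.0845). Of the 9 cytokines, chemokines and effectors tested, 0 passed, and they ranged from -1.11 (CCL3) to 0.59 (IL1B), both at low levels. Of 8 TGF-beta and BMP feedback genes tested, SKIL, an inhibitor of SMAD proteins, rose within pairs (from 466 and 263 to 586 and 320.0, 0.30), and 0 fell.

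Among 14 FOXO targets and brakes of PI3K-AKT signaling, 3 rose and 0 fell, with a median of 0.01. They were BCL6, the glucose uptake inhibitor TXNIP (from 4586 and 4240.1 to 5294 and 4654, 0.17) and the cyclin CCNG2 (from 377 and 351 to 472 and 422, 0.29). Of 12 SRC family and other tyrosine kinases tested, LYN rose by 0.15 and FLT3, the receptor kinase mutated in this line, fell from 6994 and 8207 to 6469 and 6931 (-0.18, SE 0.04, limma adjusted p = 0.00325).

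The list for the MLL fusion program held transcription factors and genes of signaling, survival and chromatin, with DOT1L, MEN1 and PSIP1 among the latter. Of its 25 genes, 24 were tested, 0 rose and 6 fell, with a median of -0.03, and each fall was small. Among all genes tested, at all levels, 1.29% fell. MYB, FLT3, ZEB2 and DOT1L had high means of 7473, 7150, 5376 and 3479. The SE of each was 0.04, against 0.20 for NR4A2 at a mean of 66.3, so smaller changes could pass in them. Of the 6, 1 passed in DESeq2 with the block, which was MYB, and 0 passed in limma without the block. MYB, a transcription factor of leukemic self-renewal, went from 8040.2 and 8048 to 6576 and 7227 (log2 fold change -0.22, SE 0.04, limma adjusted p = 4.28e-05), with both treated libraries below both controls. DOT1L, the H3K79 methyltransferase, went from 3624 and 3790.2 to 2974 and 3529 (-0.19), and FLT3, given above, had groups that almost touched. ZEB2 (-0.18), LMO2 (-0.16) and GFI1 (-0.14), all transcriptional regulators of blood cells, also fell, and the groups of each overlapped. HOXA9 and MEIS1, the homeobox factors most tied to this program, did not pass, with log2 fold changes of 0.04 and 0.09.

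Genes of myeloid maturation were set beside all genes tested, of which 2.52% passed. Of 15 monocyte genes tested, 0 rose and 1 fell, with a median of 0.05. The gene that fell was IRF8, a transcription factor of the monocyte and dendritic lineages, from 9943 and 10868 to 8318 and 9067 (log2 fold change -0.26, SE 0.04, limma adjusted p = 6.05e-07), with a clear gap between groups. The receptors CSF1R, CD86 and ITGAM did not pass, with log2 fold changes of 0.19, 0.36 and 0.19, nor did LYZ, the lysozyme gene (0.05). Of 13 granulocyte genes tested, 0 passed in either direction, with a median of 0, and 13 of 13 lay between -0.17 and 0.46. The unadjusted p in limma with the block was under 0.05 in 5 of these 13, beside 11.7% of all genes tested. With quantile normalization 1 of them passed higher and 2 lower. Among 12 identity markers of the line tested, FLT3 and FUT4 fell. FUT4, the enzyme that makes the CD15 epitope, went from 4114 and 4427 to 3193 and 3215 (log2 fold change -0.41, SE 0.04, limma adjusted p = 1.45e-17), with tight replicates in both groups.

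Of 34 genes of MYC and ribosome biogenesis, 2 rose (MXD1 and BOP1) and 2 fell (MYC and RRS1), with a median of -0.01, where 2.52% of all genes tested passed. All 29 ribosomal protein genes stayed between -0.06 and 0.08, and 0 passed. Of 32 genes of DNA replication and mitosis 0 passed, with a median of 0.05 and a range from -0.08 to 0.18. Of 9 D cyclins, their kinases and CDK inhibitors, 1 fell and 1 rose. CDKN1A, the CDK inhibitor p21, fell within pairs from 7415 and 5721 to 6481 and 4784 (-0.23), and CDKN2D, the CDK4/6 inhibitor p19, rose from 436 and 495 to 558 and 641 (0.36). Replicate 1 of both groups had more CDKN1A than replicate 2, and this difference exceeded that between the groups. Of 14 BCL2 family genes tested, BCL2L11, which encodes the death activator BIM, fell from 986 and 1056 to 891 and 804 (-0.27, SE 0.06, limma adjusted p = 0.00115), and BCL2 and MCL1 did not pass (-0.06 and 0.10).

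**Figure D3:**
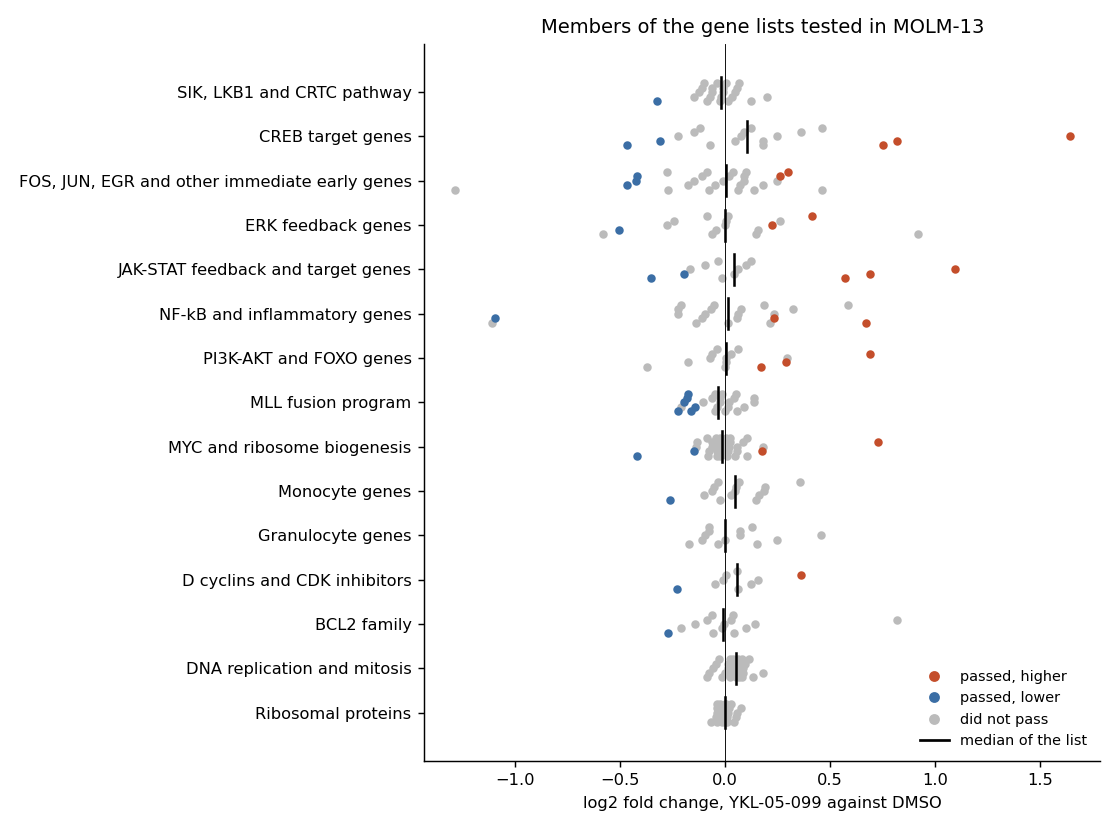
Log2 fold change of YKL-05-099 against DMSO (horizontal axis) for every tested member of 15 gene lists, 1 point per gene, with the median of each list as a black bar and colours for genes that passed limma with the replicate block. List medians lie between -0.03 and 0.11, PDE4B is the highest and TNFAIP3 the lowest of the members that passed, and the 6 of the MLL fusion program lie below 0, none of them past -0.22.

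In each stress or metabolic list at most 2 genes passed, where 2.52% of all genes tested passed. Of 28 genes of the integrated stress response, DDIT4 rose and SLC3A2 fell, and the factors ATF4 and DDIT3 did not pass, with overlapping groups in both. In the p53 list, 1 of 23 rose (RRM2B, 0.15) and 1 fell (CDKN1A). Heat shock genes (0 of 11), the unfolded protein response (0 of 17), NRF2 antioxidant genes (0 of 14), interferon-stimulated genes (0 of 17) and nuclear genes of the respiratory chain and ATP synthase (0 of 25) had 0 genes past limma in either direction. Together with the granulocyte, ribosomal protein, replication and mitosis, RNA quality and other cell type lists, these 10 lists hold 168 tested entries, of which 19 (11.3%) had an unadjusted p under 0.05 in limma with the block, beside 1320 of all 11330 genes tested (11.7%). Both edgeR and DESeq2 with the block called 0 of the 168. These lists were grouped because limma called 0 genes in them. All 28 DESeq2 calls and 269 of the 278 edgeR calls lay among the 285 of limma, so these counts are no separate support. Quantile normalization in limma called 1 granulocyte gene higher and 2 lower. It also called 1 ribosomal protein gene and 1 replication and mitosis gene higher. In the heat shock, respiratory chain and NRF2 lists it called 1 gene each, lower. TMM scaling called 1 heat shock gene lower. Of 24 sterol and fatty acid genes, INSIG1 rose within pairs (0.17). In the glycolysis and hypoxia list of 18 tested genes, the glucose transporter SLC2A1 rose from 1979 and 1978 to 2502 and 2379 (0.30, SE 0.05, limma adjusted p = 1.05e-07) and hexokinase HK2 fell from 2127 and 2280.4 to 1941 and 2010.0 (-0.16). Both genes had replicates close to each other within each group. The unadjusted p in limma with the block was under 0.05 in 7 of 23 p53 and 7 of 18 glycolysis and hypoxia genes. That held for 3 of 28 integrated stress response and 6 of 24 sterol and fatty acid genes, beside 11.7% of all genes tested.

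The response was set beside that of RN2, a mouse model of the disease made with MLL-AF9 and mutant Nras, also with an empty vector, which received YKL-05-099 at 350 nM or 0.1% DMSO for 2 h, with 2 libraries each. Organism, line and dose differ together and cannot be told apart, and the tables were normalized separately, so the test compares changes and not levels. Among 8815 genes with the same symbol in both species and a mean of at least 10 in both, the change differed between the lines in 79 (0.896%) in a limma interaction fit over 8 libraries with the replicate block. Of these, 51 were more positive and 28 more negative in MOLM-13, and without the block 0 passed (175 at an unadjusted p under 0.05). Of the 285 genes that passed in MOLM-13, 227 had a partner in RN2. The change in RN2 had the same sign in 151 of them (66.5%), against 52.7% of all 8815 genes. The median in RN2 was 0.10 for the MOLM-13 rises and -0.05 for the falls, beside 0.29 and -0.24 in MOLM-13. These genes were chosen by their change in MOLM-13 and not in RN2, so the sizes of these medians cannot be compared between the lines.

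Several of the largest MOLM-13 changes differed from those in RN2. SHISA2 read 147 and 163 with DMSO and 178 and 196 with YKL-05-099 in RN2, and its change in MOLM-13 was lower by -2.33 on the log2 scale (SE 0.20, limma adjusted p = 5.38e-06). OSM had 170.0 and 168 and 183 and 191 in RN2 (difference 0.95, limma adjusted p = 0.015). It was well above the filter in RN2, and the treated RN2 libraries lay close to the controls. HBEGF read 69.3 and 73.0 with DMSO and 53.5 and 45.9 with YKL-05-099 in RN2, and BCL6 read 82.9 and 138 and 67.1 and 62.5, with differences between the lines of 1.37 and 1.41 (limma adjusted p = 0.00184 and 0.00432). In both, the treated RN2 libraries were below their controls while the treated MOLM-13 libraries were above theirs.

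For TNFSF14, IL10RA, TNFAIP3 and PTGER4 the interaction did not pass, and the estimates in RN2 had the same sign. TNFSF14 changed by 0.68 in MOLM-13 and 0.65 in RN2 (difference 0.03, SE 0.18), IL10RA by 1.08 and 0.89 (difference 0.19, SE 0.24), and TNFAIP3 by -1.09 and -0.73 (difference -0.36, SE 0.13). The level of IL10RA was low in RN2, at 14.7 and 19 with DMSO and 27.2 and 37.1 with YKL-05-099. PTGER4 fell in MOLM-13 by a log2 fold change of -0.83 and had an estimate of -1.82 in RN2, where its level was low (24.1 and 33.0 with DMSO, 4.86 and 10.7 with YKL-05-099). The interaction did not pass either for BCL3, RGS2 and DHRS9, whose estimates had opposite signs in the 2 lines. BCL3 changed by 0.67 in MOLM-13 and -0.05 in RN2, RGS2 by 0.75 and -0.10, and DHRS9 by -0.58 and 0.01. An adjusted p above the threshold does not show that the lines respond alike, and the standard errors leave room for differences. The changes of SIK1, SIK2, SIK3, MEF2A and MEF2C differed by -0.16, 0.10, -0.12, -0.02 and 0.13, and like that of MEF2D none passed the interaction test.

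**Figure D4:**
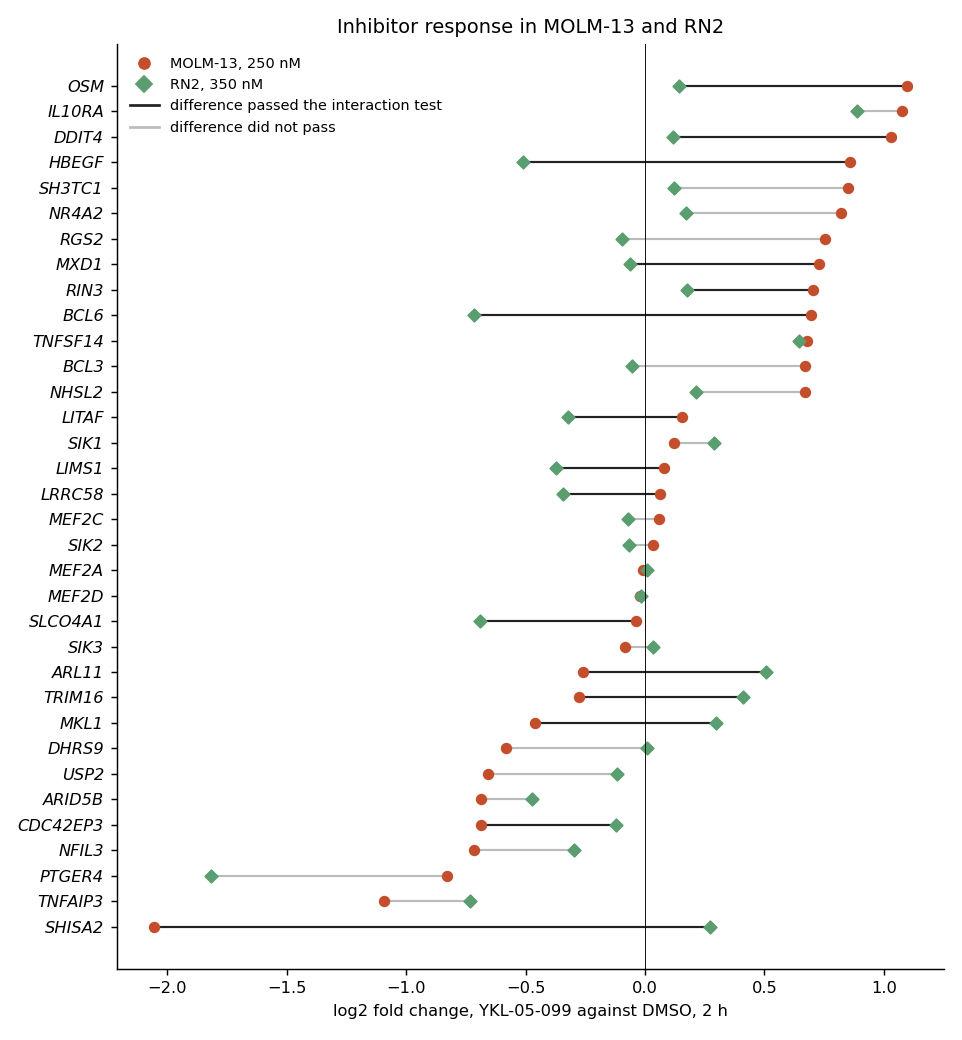
Log2 fold change of YKL-05-099 against DMSO in MOLM-13 (circles) and RN2 (diamonds) for the named genes measured in both lines, joined by a dark line where the difference passed the interaction test. SHISA2 fell in MOLM-13 and lies above 0 in RN2, and HBEGF and BCL6 lie on opposite sides of 0. TNFSF14 and IL10RA lie close together, with IL10RA at a low level in RN2.

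Of the genes listed for the histocompatibility and pseudoautosomal regions, 169 were in the table, 31 of them with a mean of at least 10, and all were left out of the counts above. With them included, 290 genes passed, 5 of them from these regions.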

How the data were processed

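The authors deposited, per the labels, a table of DESeq2-normalized values for the 4 MOLM-13 libraries, a signal equal to the read count divided by a size factor per library. HISAT2, featureCounts, DESeq2 and the builds hg19 and mm10 are named in the submitters' processing notes, with versions not given in the sources used here. Dividing by the smallest nonzero value gave whole reads for 100% of values (largest deviation 6.1e-10 reads). Replicates of 1 group differed beyond sampling noise (chi-square over degrees of freedom 14.4 for DMSO and 13.7 for YKL-05-099). Genes with a mean of at least 10 were tested in R 4.3.3 with limma 3.58.1 (empirical Bayes with a trend, two-sided) on log2(value + 1), with replicate number as a block, which leaves 1 residual degree of freedom, and Benjamini-Hochberg adjustment at 0.05. Log2 fold changes are on that scale, which understates changes of low genes. The block was part of the comparison's definition. The labels give only a shared number, and the correlation of 0.54 between same-numbered deviations is the support for it. Genes of the histocompatibility and pseudoautosomal regions were left out by symbol. Recovered reads were tested with edgeR 4.0.16 and DESeq2 1.42.0 as alternatives. The limma fit was also run on simulated reads, in which all genes had the same dispersion and same-numbered libraries shared their block shift. That run cannot show if the block and the shared variance hold in these data.

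Named genes were SIK1 to SIK3, MEF2A to MEF2D, the 15 largest rises and 15 largest falls that passed with a mean of at least 50, up to 4 members of lowest p per list, and the 5 lowest interaction p-values in each direction. Of the falls, 1 gene is not reported here. Members named beyond these were chosen after their values were seen. The genes, the 30 lists and the comparison were chosen with earlier results of these data known. Robust empirical Bayes and the fits of edgeR and DESeq2 without the block were added after seeing the data.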

Additional observations from a re-analysis of the deposited data

Results flagged for a closer look

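For 15 named genes the change with YKL-05-099 differed between MOLM-13 and RN2 in the limma interaction fit with the replicate block. Organism, line and dose cannot be told apart in this comparison, and without the block 0 genes passed it (175 of 8815 at an unadjusted p under 0.05).

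Of these, 8 are described in the report, given here as the MOLM-13 log2 change minus the RN2 change. The difference was -2.33 for SHISA2, 1.37 for HBEGF, 1.41 for BCL6 and 0.95 for OSM. For DDIT4 it was 0.91 (limma adjusted p = 0.00192), with 288 and 309 in the RN2 controls and 310.0 and 338 in the treated RN2 libraries. MXD1 differed by 0.79 (limma adjusted p = 0.00089), with 679 and 648 and then 633 and 638 in RN2. CDC42EP3 differed by -0.57 (limma adjusted p = 0.00184), and its RN2 treated libraries lay close to 1 of the controls and below the other (574 and 484 with DMSO, 487 and 483 with YKL-05-099). RIN3 differed by 0.53 (limma adjusted p = 0.00479), with an RN2 estimate of 0.18.

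Like SHISA2, MKL1, ARL11 and TRIM16 had an estimate below 0 in MOLM-13 and above 0 in RN2. MKL1, a coactivator of serum response factor, read 2624 and 2611 with DMSO and 1885 and 1919 with YKL-05-099 in MOLM-13 and had a log2 fold change of 0.30 in RN2, a difference of -0.76 (limma adjusted p = 5.38e-06). Every treated library was below its controls in MOLM-13 and above them in RN2. ARL11, a small GTPase of the ARF family, differed by -0.76, with 616 and 699 and 865 and 1004 in RN2 and -0.26 on the log2 scale in MOLM-13. TRIM16, a ubiquitin ligase, differed by -0.69, from -0.28 in MOLM-13 and 0.41 in RN2.

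In 4 further genes the RN2 estimate was below 0 and larger in size than the MOLM-13 estimate. LITAF, an endosomal membrane protein, differed by 0.48 (RN2 estimate -0.32), LRRC58 by 0.41 (-0.34), LIMS1, the integrin adaptor PINCH1, by 0.45 (-0.37), and SLCO4A1, an organic anion transporter, by 0.65 (-0.69). In MOLM-13 the log2 fold changes of LITAF, LRRC58, LIMS1 and SLCO4A1 were 0.16, 0.06, 0.08 and -0.04, and none passed the test there.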

How the results depend on the processing

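With the replicate block kept, the 285 calls in MOLM-13 became 278 in edgeR, 285 with a pseudocount of 0.5 and of 5, 259 with no filter on low values, 283 with a mean of at least 50, 291 with TMM scaling, 337 with quantile normalization and 280 with robust empirical Bayes. Higher genes made up 48.8% of calls, 45.4% with TMM scaling and 50.7% with quantile normalization. DESeq2 with the block gave 28 calls (7 higher, 21 lower), and a threshold of 0.01 gave 165. Without the replicate block limma gave 0 calls, edgeR 0 and DESeq2 7. With the block and no mean-variance trend limma gave 0 (927 genes at an unadjusted p under 0.05, smallest adjusted p = 0.369). The cause of these differences was not tested. Leaving out 1 library, in a fit without the block in which the lone library is assumed to vary like the others, gave 12 to 18 calls, the lowest without DMSO replicate 1 and the highest without YKL-05-099 replicate 2. The interaction with RN2 gave 79 calls, 85 with a pseudocount of 5, 104 with a mean of at least 50, 74 with centred tables and 0 without the block.

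The 29 largest changes described kept their direction in every alternative run except MSC without YKL-05-099 replicate 2. All 29 passed with each pseudocount, filter and scaling tried, 28 in edgeR with the block (not RGS2) and with robust empirical Bayes (not GOLGA8O), 9 in DESeq2 with the block, 0 in limma without the block, and 9 to 12 when 1 library was left out. IL10RA, SHISA2, OCSTAMP and TNFAIP3 passed in all 4 fits that left out a library. Of the list members, GFI1, RRS1, SLC3A2 and HK2 did not pass with no filter on low values, nor did HK2 with quantile normalization.

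Leaving out 1 library turned the sign of some log2 fold changes. They ran from -1.523 to 0.089 for MSC, -0.077 to 0.145 for SIK2, -0.172 to 0.004 for SIK3, -0.114 to 0.094 for MEF2A, -0.173 to 0.138 for MEF2B, -0.075 to 0.189 for MEF2C and -0.054 to 0.011 for MEF2D. Among list members that passed, they ran from -0.089 to 0.557 for TNFAIP2, -0.131 to 0.74 for SKIL, -0.040 to 0.337 for RRM2B, -0.285 to 0.002 for SLC3A2 and -0.170 to 0.518 for INSIG1, in each of which replicate 1 and replicate 2 differ more than the groups. With quantile normalization, MEF2B was at 0.007. At 16859820 to 22609627 reads per library, genes near the filter of 10 rest on few reads, and 2 libraries per group limit every estimate.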

Other observations

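Other genes of surface and secreted immune proteins passed limma with the block in both directions, and the genes in this section were chosen after their values were seen. The sialic acid receptors SIGLEC9, SIGLEC7 and SIGLEC6 rose by log2 fold changes of 0.85, 0.44 and 0.43. SIGLEC9 went from 31.4 and 30.8 to 60.2 and 53.5, with the groups apart, as they were for SIGLEC7 and not for SIGLEC6. The activating receptor CD300LB rose from 223 and 269 to 324 and 360.2, the platelet-activating factor receptor PTAFR from 104 and 109 to 173 and 152, and the chemokine receptor CXCR3 from 155 and 152 to 234 and 217. In each of these the treated libraries lay above both controls. TNFSF13B, the B-cell survival factor BAFF, rose from 967 and 1027 to 1273 and 1272 (log2 fold change 0.35, SE 0.06, limma adjusted p = 2.2e-07), and the cytokine IL16 from 566 and 591 to 874 and 843 (0.57, SE 0.07, limma adjusted p = 5.16e-14). Others fell. The toll-like receptor homolog CD180 went from 518 and 776 to 393 and 545 (log2 fold change -0.45), with overlapping groups, the chemokine receptor CCR1 from 788 and 834 to 656 and 672 (-0.29) and ITGAL, the alpha subunit of the integrin LFA-1, from 24915 and 24280.0 to 21759.5 and 20900.2 (-0.21). In CCR1 and ITGAL the treated libraries lay below both controls. Of the surface and secreted proteins named in this paragraph, only IL16 and ITGAL passed in DESeq2 with the block.

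Beside PTGER4, 4 more receptors known to signal through the stimulatory G protein fell. Such receptors were not described as a list, so no share of them can be set beside the 1.29% of all genes tested that fell. The prostaglandin receptor PTGER2 went from 327 and 441 to 268 and 328 (log2 fold change -0.36), with overlapping groups. The adenosine receptor ADORA2A went from 270.5 and 294 to 187 and 251 (-0.38). The histamine receptor HRH2 went from 803 and 829 to 680.1 and 714 (-0.23) and the relaxin receptor RXFP1 from 953 and 916 to 777 and 815 (-0.23), and in these and in ADORA2A the treated libraries lay below both controls. ADCY9, an adenylyl cyclase, fell from 1996 and 1817 to 1630.2 and 1625 (-0.23), and PRKAR1A, a regulatory subunit of protein kinase A, rose within pairs from 3808 and 3367 to 4414 and 3717 (0.18). None of these 6 genes passed in DESeq2. The prostacyclin receptor PTGIR and the proton-sensing receptor GPR65, which also signal through that G protein, had log2 fold changes of 0.24 and 0.28 and did not pass limma.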
